A study of Mus musculus with 7 samples.

Results

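The genes described here are 10 genes of WNT signalling: the ligands Wnt3, Wnt5a and Wnt8a, the ligand potentiator Rspo3, the target genes Sp5 and Lef1, and the pathway inhibitors Axin2, Dkk1, Nkd1 and Notum. These inhibitors are themselves induced by the pathway, and among the 10 only Sp5 and Lef1 are called targets below. The list was named with earlier results of these libraries known, and its members were looked up by NCBI mouse gene number among the 24990 features measured, where each of the 10 matched 1 feature of its own. Levels come from 3′ RNA-seq of mouse embryoid bodies on day 4, the aggregates that R1 embryonic stem cells form when they differentiate without LIF. The perturbed locus is Meteor, which encodes a long non-coding RNA. By title, the 7 libraries were 1 CRISPR knockdown of Meteor (KD), 1 empty-vector control (Ctrl), 1 with the Meteor promoter inverted (pInv), 2 lacking that promoter (pKO1 and pKO2) and 2 wild type (WT1 and WT2). The knockdown is given as dCas9 in its own label and as Cas9 in the series' design. The genotype field contradicts 5 of the 7 titles: it gives promoter knockout for WT1 and WT2, inversion for pKO1, and wild type for pKO2 and pInv. Groups follow the titles, and each direction between pInv, pKO and WT depends on that. Whether WT1 and WT2, or pKO1 and pKO2, are separate cultures or clones is not stated, so p-values measure the spread between these libraries, which may be technical. All lines share the R1 background and were grown as hanging drops in serum medium after feeder cells had been depleted.

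WNT ligands are lipid-modified secreted proteins. Bound to a Frizzled receptor and an LRP coreceptor, they stop a cytoplasmic complex built on axin proteins from destroying β-catenin, which then enters the nucleus and switches on targets together with TCF/LEF factors. In the mouse embryo, Wnt3 in the posterior epiblast and visceral endoderm is needed to form the primitive streak, from which mesoderm and endoderm emerge, and embryoid bodies pass through a similar stage. Several targets encode inhibitors, so the pathway limits itself.

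Promoters of Sp5 and Dkk1 are shown because both genes were lowest of all libraries in WT2 and because both hold matches to the sequence that TCF/LEF factors bind. As both features were used to pick them, their occurring together says nothing about a link. Wnt5a and Rspo3 were also lowest in WT2, but no window was used for them. WT2 was lowest for 28.5% of genes with a mean of 5 CPM or more, and Dkk1 had 0 counts there and 1 in pInv. The windows are the 250 bases before the annotated start, read from RefSeq on GRCm38.p6, with matches in capitals. The motif was searched in 4 spellings on both strands: as CTTTGAA, or with a changed last base as CTTTGAT, or with T in the last base but one as CTTTGTA, or with both as CTTTGTT. The stretch AACAAAG is a match on the other strand. Sp5 lies at chr2:70474673-70474922 on the plus strand, with matches at positions -222 and -104 from the start. Dkk1 lies at chr19:30549497-30549746 on the minus strand, with matches at positions -117 and -98 from the start.
Sp5: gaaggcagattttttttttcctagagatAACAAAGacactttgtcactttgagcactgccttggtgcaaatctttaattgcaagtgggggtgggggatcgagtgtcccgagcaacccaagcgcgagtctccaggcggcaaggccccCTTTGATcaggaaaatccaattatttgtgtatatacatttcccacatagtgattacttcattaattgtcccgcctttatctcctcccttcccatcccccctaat
Dkk1: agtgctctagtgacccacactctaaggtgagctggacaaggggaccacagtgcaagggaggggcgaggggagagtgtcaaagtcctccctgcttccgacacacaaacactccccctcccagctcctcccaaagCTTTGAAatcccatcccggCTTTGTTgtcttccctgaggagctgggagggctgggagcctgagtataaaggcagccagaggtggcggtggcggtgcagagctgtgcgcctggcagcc
Of 32851 such windows of the RefSeq table, 14.8% held at least 1 match and 1.43% held at least 2. RefSeq windows were used for 6 of the 10 genes, 9 windows in all. Of these, 3 held a match: those of Sp5 and Dkk1 and 1 of the 4 alternative starts of Lef1. No window of Wnt5a, Rspo3 or Notum was among those read, and any window of Wnt8a was left out here but not from the 32851. The 3 of 9 is therefore a partial count and cannot be compared with the share among all windows. The windows of Wnt3, Axin2 and Nkd1 held none of these letters. A match is a description of the sequence and not a measured site of binding.

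The libraries were shallow and uneven. WT2 was shallowest with 1898350 expected counts and WT1 deepest with 2564478, and the highest count of any of the 10 genes was 327 (Sp5 in pKO2). The most abundant feature, which the annotation used here does not name, took 12.9% (pInv) to 24.1% (WT2) of a library. A floor of 3 counts came to 1.12 CPM (counts per 1000000, after scaling by library size and TMM factor) in WT1 and 1.79 CPM in WT2, where the exact 95% Poisson interval of a count of 0 reached 2.20 CPM; floors and intervals cover counting error only. WT2 had the lowest sums of streak and mesoderm markers: the 8 primitive streak markers summed to 2399 CPM in KD, 1638 in Ctrl, 1223 in pInv, 1465 and 2033 in pKO, and 1710 and 599 CPM in WT1 and WT2. Lhx1 made up much of that sum, with 1133 CPM in KD and 490 in Ctrl, while Nodal had 42.3 CPM in KD and 80.9 in Ctrl, and Eomes 398 CPM in KD and 420 in Ctrl. The 8 nascent mesoderm markers summed to 417 CPM in KD, 98.6 in Ctrl, 106 in pInv, 100.3 and 182 in pKO, and 120.1 and 18.5 CPM in WT1 and WT2. The 8 pluripotency markers summed to 1539 CPM in KD and 2449 in WT2, the extremes, of which Pou5f1 alone was 1081 CPM in KD and 2178 in WT2; Nanog (7.77 CPM) and Tdgf1 (69.9 CPM) had their lowest levels in WT2. Feeder fibroblast markers summed to 4.04 CPM in Ctrl and 11.0 CPM in KD, the extremes, and the neural factor Sox1 was at 0 in all 7 libraries. In RNA from whole aggregates, fewer cells of a type and less RNA per cell cannot be told apart.

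Among the ligands, Wnt3 was nearly level, Wnt5a was highest in KD and lowest in WT2, and Wnt8a was lowest in KD and highest in WT2. Wnt3 (NCBI gene 22415) stood at 99.7 CPM in KD, 73.3 in Ctrl, 81.1 in pInv, 67.5 and 71.1 in pKO, and 78.0 and 72.3 in WT1 and WT2. KD was the only library above its neighbour in that order beyond counting error (KD over pInv 1.23, exact 95% interval 1.01 to 1.502). Wnt5a (NCBI gene 22418), a ligand that acts mostly without β-catenin, stood at 28.0 CPM in KD, 5.06 in Ctrl, 5.91 in pInv, 4.76 and 10.6 in pKO, and 7.09 and 1.19 in WT1 and WT2. KD exceeded pKO2, the next library, beyond counting error (2.64, 1.64 to 4.35), and none of the steps between the other neighbours in the order passed counting error. Wnt8a (NCBI gene 20890), a β-catenin-dependent ligand of the posterior epiblast and streak, was at 28.5 CPM in KD, 43.0 in Ctrl, 60.0 in pInv, 39.9 and 40.0 in pKO, and 36.6 and 87.2 in WT1 and WT2. WT2 exceeded pInv and pInv exceeded Ctrl beyond counting error, while Ctrl, both pKO libraries, WT1 and KD followed in steps that did not.

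**Figure D1:**
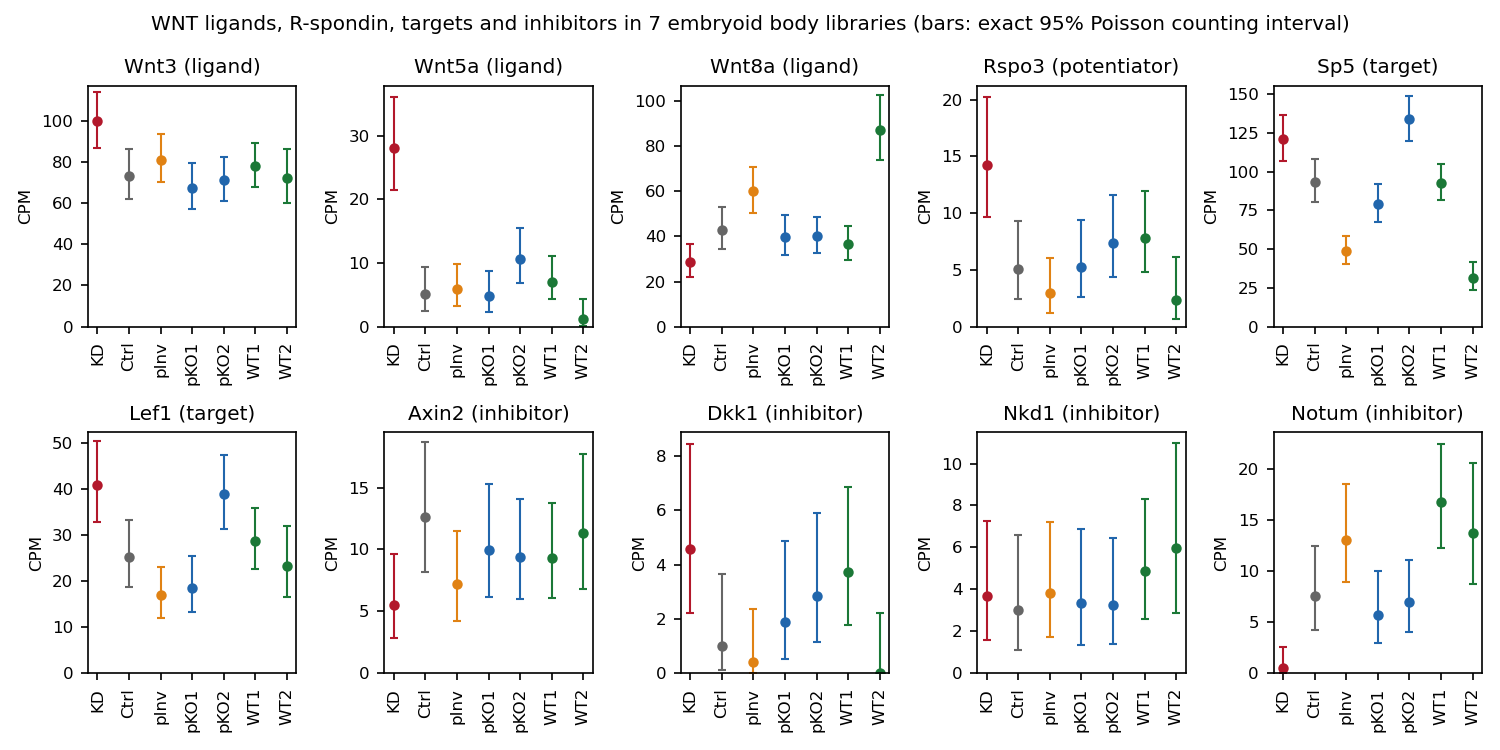
Level of each of the 10 genes in CPM (vertical axis, from 0, a scale per panel) in the 7 libraries (horizontal axis); points are single libraries and bars are exact 95% Poisson counting intervals. Wnt5a and Rspo3 are highest and Notum and Wnt8a lowest in KD, and Wnt8a is highest at 87.2 CPM in WT2, where Sp5 is lowest at 31.7 CPM.

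Rspo3 (NCBI gene 72780) encodes a secreted R-spondin, which keeps Frizzled receptors on the cell surface. It stood at 14.2 CPM in KD, 5.06 in Ctrl, 2.96 in pInv, 5.23 and 7.35 in pKO, and 7.84 and 2.39 in WT1 and WT2. Like Wnt5a it was highest in KD and lowest in WT2, with KD above WT1, the next library, by 1.82-fold (exact interval 1.01 to 3.33).

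Both targets had their 2 highest levels in KD and pKO2. Sp5 (NCBI gene 64406), a zinc-finger factor induced directly by β-catenin, stood at 121 CPM in KD, 93.5 in Ctrl, 49.0 in pInv, 78.9 and 134 in pKO, and 92.5 and 31.7 in WT1 and WT2. Lef1 (NCBI gene 16842), a nuclear partner of β-catenin that is also induced by it, stood at 40.9 CPM in KD, 25.3 in Ctrl, 16.9 in pInv, 18.5 and 38.8 in pKO, and 28.7 and 23.3 in WT1 and WT2. Sp5 separated the libraries in more steps than Lef1: pInv lay below pKO1 (pKO1 over pInv 1.61) and WT2 below pInv (pInv over WT2 1.55) beyond counting error, whereas no step between neighbours did so for Lef1.

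The 4 inhibitors did not share a pattern. Axin2 (NCBI gene 12006), a scaffold of the β-catenin destruction complex, stood at 5.52 CPM in KD, 12.6 in Ctrl, 7.18 in pInv, 9.99 and 9.39 in pKO, and 9.33 and 11.4 in WT1 and WT2. Dkk1 (NCBI gene 13380), which blocks LRP coreceptors from outside the cell, stood at 4.60 CPM in KD, 1.01 in Ctrl, 0.42 in pInv, 1.902 and 2.86 in pKO, and 3.73 and 0 in WT1 and WT2. For both genes no step between neighbouring libraries passed counting error. Nkd1 (NCBI gene 93960), which binds the transducer Dishevelled, kept within 3.03 CPM (Ctrl) and 5.97 CPM (WT2). Notum (NCBI gene 77583), a secreted esterase that strips the lipid from WNT ligands, was at 0.46 CPM in KD, 7.58 in Ctrl, 13.1 in pInv, 5.71 and 6.94 in pKO, and 16.8 and 13.7 in WT1 and WT2. WT and pInv were higher than Ctrl and pKO, but the step between these sets did not pass counting error (pInv over Ctrl 1.73, exact interval 0.904 to 3.44). KD lay below pKO1, the next library, beyond counting error (pKO1 over KD 12.4, exact interval 1.84 to 531). Notum is the only one of the 10 whose expected counts were not whole, as RSEM gives where it divides reads between features, so its level is less certain.

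**Figure D2:**
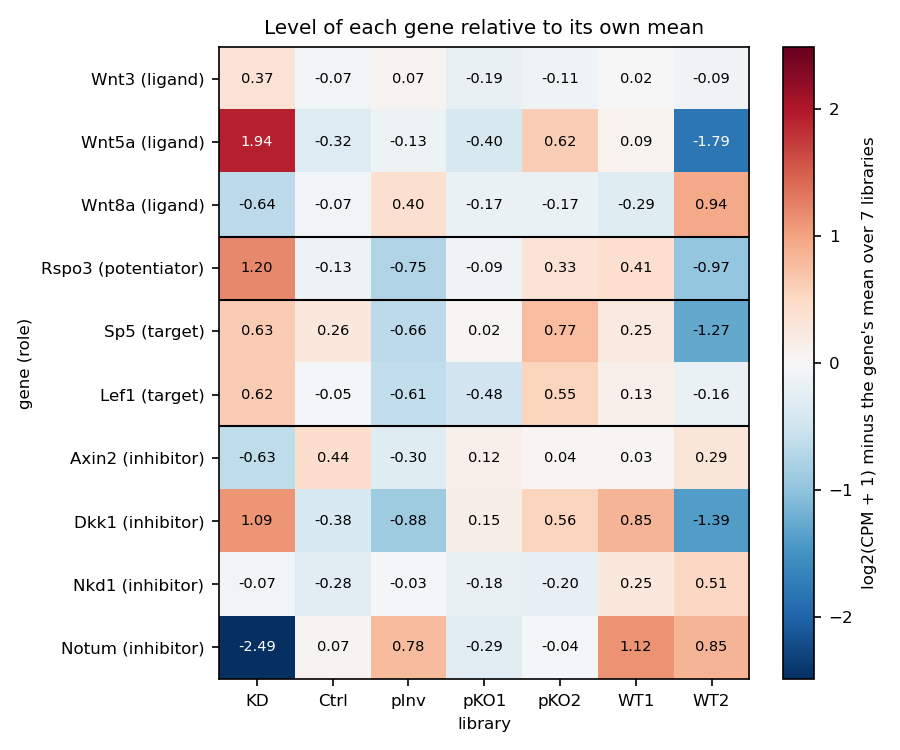
Level of each gene (rows, grouped by role) in each library (columns) as log2(CPM + 1) minus the gene's mean over the 7 libraries, with the value in each cell. In KD Wnt5a is at 1.94 and Notum at -2.49, and in WT2 Wnt5a is at -1.79 and Wnt8a at 0.94.

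Read by role, the targets and the inhibitors gave different orders of the libraries. The median deviation of Sp5 and Lef1 from their own means, on the log2(CPM + 1) scale, was 0.63 in KD, 0.11 in Ctrl, -0.63 in pInv, -0.23 and 0.66 in pKO, and 0.19 and -0.72 in WT1 and WT2. For the 4 inhibitors it was -0.35 in KD, -0.11 in Ctrl, -0.17 in pInv, -0.03 and 0.00 in pKO, and 0.55 and 0.40 in WT1 and WT2. For the 3 ligands the median stayed between -0.19 (pKO1) and 0.37 (KD), while Wnt5a and Wnt8a deviated in opposite directions in KD and in WT2. These medians rest on 2 to 4 genes and carry no test.

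The knockdown was set against its empty-vector control to ask what lowering Meteor does. In KD, the Wnt5a, Rspo3, Lef1, Wnt3 and Sp5 transcripts were more abundant and the Wnt8a, Axin2 and Notum transcripts less abundant than in Ctrl, beyond counting error. There is 1 library on each side, so no replicate check and no p-value exist, and the intervals compare these libraries and not the conditions. The KD to Ctrl ratio was 5.55 for Wnt5a (exact 95% interval 2.82 to 12.1), from 61 counts in KD and 10 in Ctrl. For Rspo3 it was 2.82 (1.35 to 6.45), from 31 counts in KD and 10 in Ctrl. The β-catenin-dependent ligands gave ratios of 1.36 for Wnt3 (1.10 to 1.69) and 0.663 for Wnt8a (0.470 to 0.931). Scaled by library size only, the Wnt8a interval was 0.511 to 1.01 and included 1.

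Lef1 and Sp5, the genes called targets here, were higher in KD by less than 2-fold, whereas the induced inhibitors Axin2 and Notum were lower. Lef1 had a ratio of 1.62 (1.13 to 2.34) and Sp5 of 1.29 (1.07 to 1.57). The inhibitors split: Axin2, with 12 counts in KD and 25 in Ctrl, gave 0.436 (0.200 to 0.902), and Notum, with 1 count in KD and 15 in Ctrl, gave 0.0606 (0.00144 to 0.394). Dkk1, with 10 counts in KD and 2 in Ctrl, gave 4.55 with an interval from 0.969 to 42.7, and Nkd1, with 8 counts in KD and 6 in Ctrl, gave 1.21 (0.369 to 4.24). No difference was detectable for these 2 genes at this depth, although the Dkk1 interval lay just above 1 (1.05 to 46.4) when scaled by library size only.

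**Figure D3:**
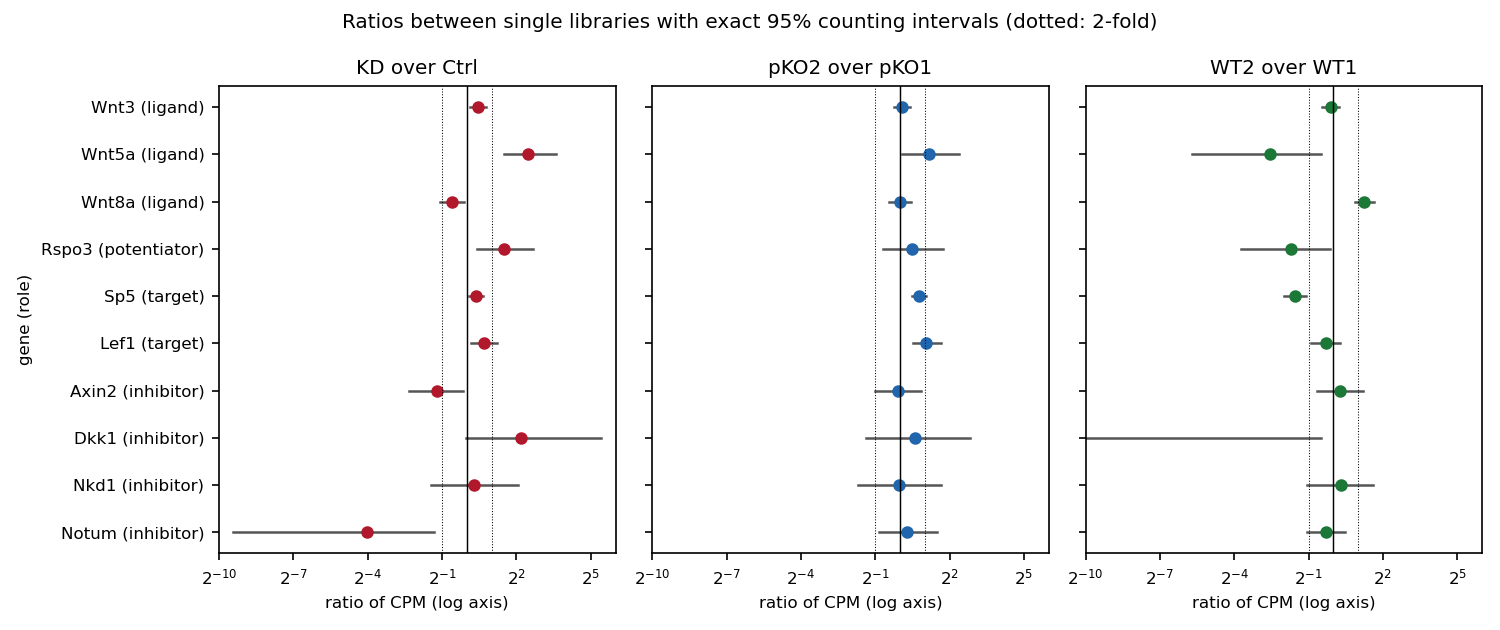
Ratio of CPM between single libraries (log axis) for each gene, with exact 95% counting intervals; left KD over Ctrl, middle pKO2 over pKO1, right WT2 over WT1, and dotted lines at 2-fold. Wnt5a is at 5.55 for KD over Ctrl and at 0.169 for WT2 over WT1; Dkk1 has no point in the right panel because it had 0 counts in WT2, and its interval there runs off the axis.

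Counted against the whole table, 8 of the 10 genes (all but Dkk1 and Nkd1) reached 5 CPM in either library, and of these 5 lay above 1 and 3 below 1 with their counting interval, where 14.9% and 11.0% of all 9383 genes at that level did so. By size, at 20 CPM or more in either library and a 2-fold ratio, 1 of the 5 genes that reached that level was higher in KD (Wnt5a) and 0 were lower, where 4.03% of 5083 genes were higher and 1.26% lower. Wnt5a reached 20 CPM only in KD, the library where it was high, so its count supports nothing beyond its values. At 5 CPM or more, 2 of 8 were higher (Wnt5a and Rspo3) and 2 lower (Axin2 and Notum), where 10.2% of 9383 genes were higher and 4.21% lower; Notum reached 5 CPM only in Ctrl. The 5 genes at 20 CPM or more had a median log2 ratio of 0.44, beside -0.03 over all genes at that level. KD was the highest of the 7 libraries for 5 of the 10 genes and the lowest for 3, where it was highest for 17.1%, lowest for 18.2% and either for 35.3% of 8455 genes with a mean of 5 CPM or more. Dkk1, 1 of the 5, had a lower mean. Markers of nascent mesoderm moved with these values: 8 of 8 were detected in KD and 7 of 8 in Ctrl, with sums of 417 CPM in KD and 98.6 CPM in Ctrl, and their part in the result was not tested. Of the 4 pluripotency markers at 20 CPM or more, 2 were 2-fold lower in KD (Sox2 and Dppa4); Pou5f1 had a ratio of 0.707 (0.670 to 0.746) and Tdgf1 of 1.45 (1.30 to 1.63). In the definitive endoderm list, 3 genes reached 20 CPM and did not share a direction. Cxcr4, which reached it only in KD, had 39.5 CPM there and 5.06 in Ctrl (7.82, 4.05 to 16.9). Foxa2 had 156 CPM in KD and 226 in Ctrl (0.690, 0.598 to 0.796), and Cer1 had a ratio of 1.08 (0.839 to 1.40). The 5 genes of that list summed to 285 CPM in KD and 306 CPM in Ctrl.

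Libraries of 1 group also differed in several of these genes. WT2 over WT1 gave ratios of 0.169 for Wnt5a (exact interval 0.0190 to 0.699), 0.305 for Rspo3 (0.0761 to 0.904) and 0.342 for Sp5 (0.249 to 0.462), and 2.39 for Wnt8a (1.83 to 3.11). Dkk1 had 0 counts in WT2 and 10 in WT1. Thus 4 genes lay below 1 and 1 above it with their interval, where 22.5% and 21.7% of 8946 genes at 5 CPM or more in either library did so. Dkk1, 1 of the 4, stayed below that level. At 20 CPM or more, Wnt8a was 2-fold higher and Sp5 2-fold lower in WT2, as were 5.99% and 11.1% of 5157 genes. WT2 was the highest of the 7 libraries for 2 of the 10 genes and the lowest for 4, where it was highest for 26.8%, lowest for 28.5% and either for 55.2% of genes with a mean of 5 CPM or more, so the share of the 10 at an extreme in WT2 was near that of all genes. Dkk1 and Nkd1, which are counted here, had lower means. pKO2 over pKO1 gave 2.23 for Wnt5a (1.04 to 5.19), 1.69 for Sp5 (1.40 to 2.05) and 2.09 for Lef1 (1.43 to 3.12), so 3 genes lay above 1 and 0 below it, where 13.0% and 15.0% of 8850 genes at 5 CPM or more in either library did. At 20 CPM or more, Lef1 was 2-fold higher in pKO2 and 0 of the 10 were 2-fold lower, where 1.14% of genes were higher and 4.33% lower; Lef1 reached 20 CPM only in pKO2. Axin2, Nkd1, Notum and Wnt3 had intervals that included 1 in both pairs. Notum had a ratio of 0.818 (0.473 to 1.38) within WT and 1.22 (0.548 to 2.79) within pKO.

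The pKO libraries were set against WT to ask what losing the Meteor promoter does. None of the 10 genes passed the threshold, an adjusted p under 0.05 by the quasi-likelihood test of edgeR (Benjamini-Hochberg over 10265 genes), nor did any gene of the table (0.00% called, 106 genes or 1.03% at an unadjusted p under 0.05; DESeq2 also called 0, with 18 at an unadjusted p under 0.05). All 10 passed the filter on low counts. Notum averaged 6.33 ± 0.875 CPM in pKO and 15.3 ± 2.16 CPM in WT (SD, n = 2 each), a log2 difference of -1.16 (SE 0.40, adjusted p = 1 in edgeR, unadjusted p = 0.0199), and was the only one of the 10 under 0.05 without adjustment. Both pKO libraries lay below both WT libraries for Notum, Nkd1 and Wnt3, which is 3 of 10, where 12.9% of all genes tested did so, and both lay above for 0 of 10, where 12.0% did. Nkd1 averaged 3.30 ± 0.0433 CPM in pKO and 5.41 ± 0.795 in WT (SD, n = 2 each; log2 difference -0.58, SE 0.53) and Wnt3 averaged 69.3 ± 2.51 and 75.1 ± 4.02 CPM (log2 difference -0.12, SE 0.26), and edgeR gave both an adjusted p of 1.

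For Sp5, Wnt8a and Wnt5a the size of the difference depended on which library was left out. Sp5 averaged 106 ± 38.6 CPM in pKO and 62.1 ± 43.0 CPM in WT (SD, n = 2 each), a log2 difference of 0.75 (SE 0.49), which was 0.22 without WT2, 0.33 without pKO2 and 1.72 without WT1. Wnt8a averaged 40.0 ± 0.0586 CPM in pKO and 61.9 ± 35.8 CPM in WT, a log2 difference of -0.61 (SE 0.42), which was 0.15 without WT2 and -1.11 without WT1. Wnt5a differed by 0.69 (SE 0.65), by 0.14 without WT2, by 0.0901 without pKO2, by 1.12 without pKO1 and by 2.03 without WT1. The direction of Wnt8a therefore turned without WT2, and so did those of Rspo3 (0.20, and -0.25 without WT2), Dkk1 (0.15, and -0.48) and Axin2 (-0.08, and 0.07). Lef1 was at 0.14 (SE 0.41) and at -0.47 without pKO2, and Rspo3 and Dkk1 also turned without pKO2, to -0.02 and -0.08. The median log2 difference over the 10 genes was 0.03, beside -0.00101 over all genes tested.

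**Figure D4:**
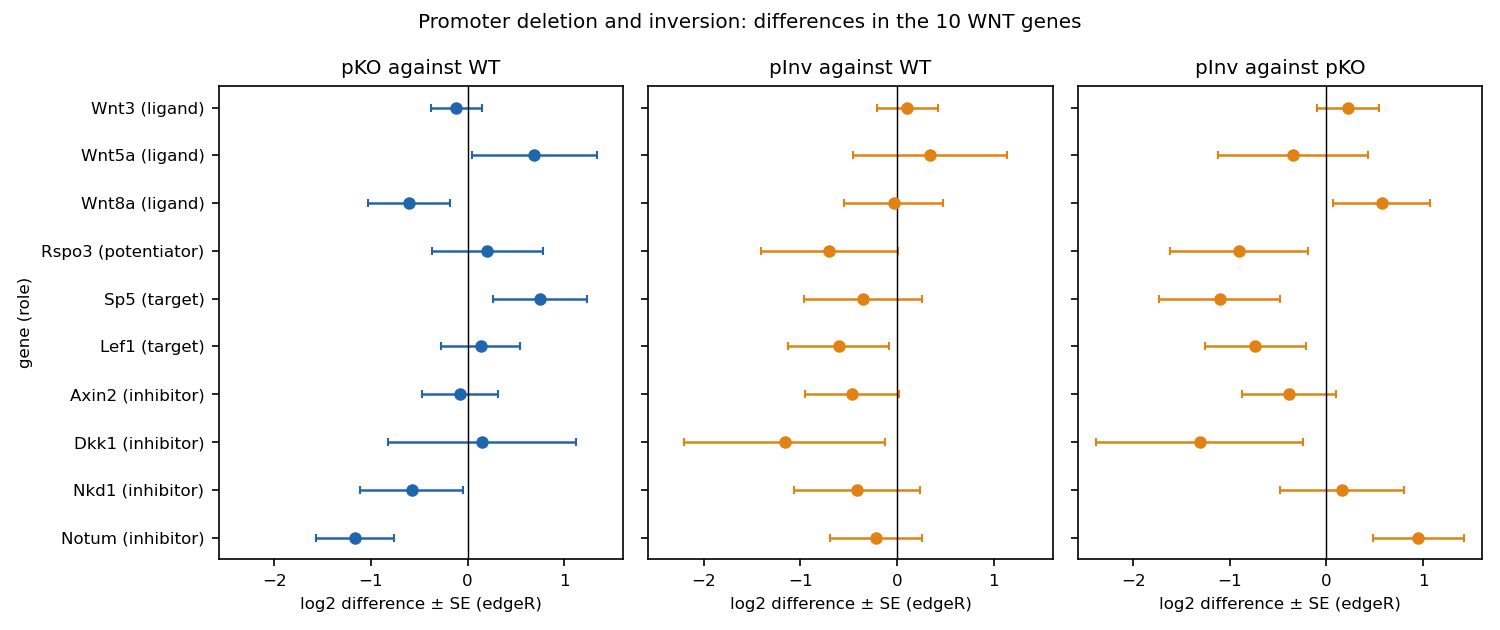
Log2 difference (horizontal axis, edgeR's quasi-likelihood fit over all 7 libraries) for pKO against WT, pInv against WT and pInv against pKO, by gene. Bars are ± SE, derived as the absolute difference over the square root of the test's F statistic. Notum lies at -1.16 for pKO against WT and at 0.95 for pInv against pKO, and none of the 30 differences passed the adjusted threshold; the comparisons share libraries.

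The pInv library was set against WT to ask what an inverted promoter does. None of the 10 genes and no gene of the table passed in edgeR's test (0.00% called, 152 genes or 1.48% at an unadjusted p under 0.05; DESeq2 called 0, with 40 at an unadjusted p under 0.05). Lef1 was at 16.9 CPM in pInv and at 28.7 and 23.3 CPM in WT1 and WT2, a log2 difference of -0.60 (SE 0.52), and Axin2 at 7.18 CPM in pInv and 9.33 and 11.4 CPM in WT (-0.47, SE 0.49). pInv lay below both WT libraries for Lef1, Axin2, Nkd1 and Notum and above both for Wnt3, which is 4 and 1 of 10, where 28.0% and 29.0% of all genes did so. Sp5 was at 49.0 CPM in pInv, inside the wild-type range of 31.7 to 92.5 CPM. Its difference of -0.35 (SE 0.61) was -0.91 without WT2 and 0.61 without WT1. Wnt5a, Wnt8a, Rspo3 and Dkk1 also lay inside the wild-type range, and each turned direction without WT1 or without WT2. For these genes and Sp5, the turn follows from a lone library lying inside that range and adds nothing to it. As pInv is a lone library, its spread was taken from the WT and pKO pairs.

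Set against pKO, which asks whether inversion and deletion of the promoter differ, pInv was below both pKO libraries for the 2 targets and above both for Notum and Wnt8a. None of the 10 genes and no gene of the table passed in edgeR's test (0.00% called, 153 genes or 1.49% at an unadjusted p under 0.05; DESeq2 called 0, with 44 at an unadjusted p under 0.05). Sp5 was at 49.0 CPM in pInv and at 78.9 and 134 CPM in pKO, a log2 difference of -1.10 (SE 0.63, adjusted p = 1 in edgeR). Notum was at 13.1 CPM in pInv and at 5.71 and 6.94 CPM in pKO (0.95, SE 0.47), and Wnt8a at 60.0 CPM in pInv and at 39.9 and 40.0 CPM in pKO (0.57, SE 0.50). pInv lay below both pKO libraries for Sp5, Lef1, Rspo3, Axin2 and Dkk1 and above both for Notum, Wnt8a, Nkd1 and Wnt3, which is 5 and 4 of 10, where 31.5% and 34.2% of all genes did so. Only Wnt5a, at 5.91 CPM, lay between the pKO values.

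Other genes of the pathway were read from lists chosen for their role. In the 3 comparisons of pInv, pKO and WT, 0 members of these lists passed edgeR's test in either direction. At an unadjusted p under 0.05 in that test there was 1, for pInv against WT, where 1.48% of all genes were. It was among 11 receptors and coreceptors tested. This gene, Lgr5, a receptor for R-spondins, is named here after its value was seen. Lgr5 was at 1.69 CPM in pInv, near the floor of 1.27 CPM there, and at 10.4 and 4.18 CPM in WT1 and WT2. For KD against Ctrl, 1 of 5 genes of ligand secretion and the other R-spondins reached 20 CPM and was 2-fold higher: Wls, which carries WNT ligands to the cell surface, at 32.6 CPM in KD and 14.7 in Ctrl (ratio 2.23, exact interval 1.43 to 3.56). It reached 20 CPM only in KD, and 4.03% of all genes at that level were 2-fold higher. Among 18 other inhibitors 3 reached 20 CPM and 1 was 2-fold higher: Frzb, a secreted decoy that binds WNT ligands, at 201 CPM in KD and 84.9 in Ctrl (2.37, 1.98 to 2.84). It was at 12.5 CPM in WT2 and 93.3 in WT1. The other two, Sfrp1 and Cer1, had ratios of 1.28 and 1.08. Of 16 other ligands only Wnt4 reached 20 CPM, at 34.9 CPM in KD and 35.9 in Ctrl (0.973, 0.695 to 1.36), and Wnt16 was at 0 in all 7 libraries, as were the inhibitors Dkk2 and Dkk4.

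Components that transmit the signal were within 2-fold where they reached 20 CPM. Of 18 receptors and coreceptors 3 reached 20 CPM, of 14 intracellular transducers 10 and of 10 nuclear effectors 8, and 0 of these were 2-fold higher or lower in KD, where 4.03% and 1.26% of all genes were. At 5 CPM, 10.2% of 9383 genes were 2-fold higher and 4.21% lower. There, 0 of 10 receptors and 0 of 14 transducers passed 2-fold, and 1 of 9 nuclear effectors was lower. This was the corepressor Tle1, with 2.76 CPM in KD and 10.1 in Ctrl (0.273, 0.0896 to 0.704), but also 1.19 in WT2 and 4.90 in pKO2. At that level 1 of 3 other ligands and 1 of 3 genes of secretion and R-spondins were higher. Of 7 other inhibitors, 2 were higher and 1 lower. Ctnnb1, the gene of β-catenin, had 302 CPM in KD, against 206 in Ctrl (1.46, exact interval 1.29 to 1.66), the WNT receptor gene Ryk 68.5 CPM in KD, against 44.0 in Ctrl (1.56, 1.19 to 2.05), the repressing effector Tcf7l1 113 CPM in KD, against 74.3 in Ctrl (1.52, 1.23 to 1.87) and the corepressor Tle4 63.9 CPM in KD, against 104.6 in Ctrl (0.611, 0.489 to 0.761). The corepressor gene Tle3 and the effector gene Tcf7l2 gave ratios of 1.41 and 1.39, with intervals above 1. The Frizzled genes Fzd3 and Fzd2 gave 0.784 and 1.12, and the kinase genes Csnk1d, Gsk3b and Csnk1e 1.17, 1.16 and 1.14. The other libraries limit these ratios. Ctnnb1 was at 93.2 CPM in WT2, 287 in WT1, 273 and 181 in pKO1 and pKO2, and 297 in pInv. Ryk was higher in pInv (78.1 CPM) than in KD. Tcf7l1 was lowest in Ctrl, and outside KD and Ctrl it ran from 100.4 CPM (WT2) to 201 CPM (pInv). Tle4 was at 108 CPM in pKO1, near Ctrl, and at 72.0 in WT1, 49.0 in WT2, 59.2 in pKO2 and 61.2 in pInv, nearer KD. Tcf7, an activating effector, had 20.7 CPM in KD, against 18.7 in Ctrl.

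Of 15 other targets of the streak and mesoderm, 8 reached 20 CPM. Of these, 1 was 2-fold higher in KD and 0 were lower, where 4.03% and 1.26% of all genes at that level were. The higher gene was Mesp1, an early mesoderm factor, at 242 CPM in KD and 71.3 in Ctrl (3.40, exact interval 2.82 to 4.12). Evx1, a homeobox factor of the streak, had 219 CPM in KD, against 121 in Ctrl (1.81, 1.54 to 2.12), and Ccnd1, a cyclin gene, had a ratio of 1.44 (1.18 to 1.76). T, the streak factor Brachyury, was at 357 CPM in KD, 339 in Ctrl, 177 in pInv, 225 and 351 in pKO, and 293 and 54.4 in WT1 and WT2, and Mixl1, another homeobox factor of the streak, at 126 CPM in KD and 80.9 in Ctrl (1.56, 1.28 to 1.91). Cdx2 had at most 2.30 CPM in any library. T and Sp5 were both lowest in WT2; for T, KD and Ctrl did not differ beyond counting error (1.05, 0.948 to 1.17).

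**Figure D5:**
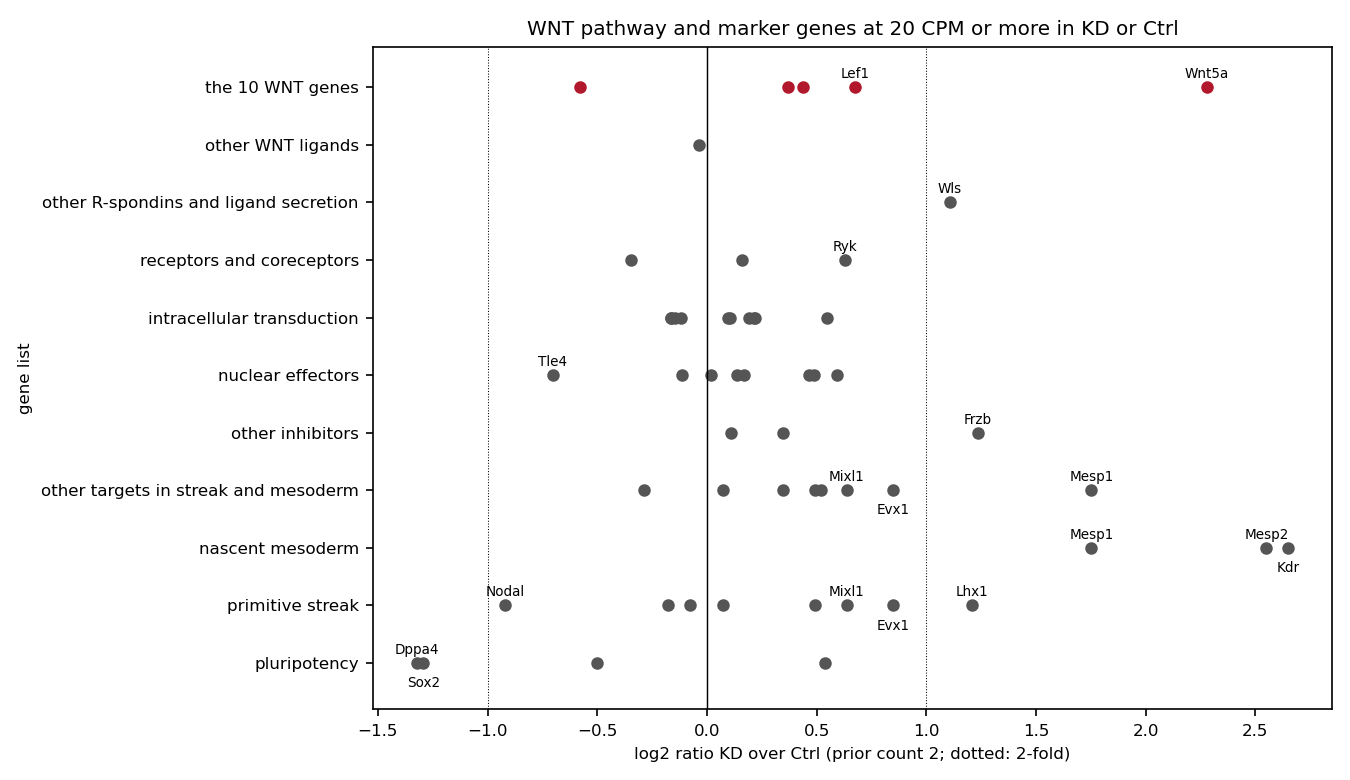
Log2 ratio of KD over Ctrl (horizontal axis, prior count 2, dotted lines at 2-fold) for genes at 20 CPM or more in either library, by list (rows); those of the 10 WNT genes at that level (5) are in red. Names mark genes at a distance of 0.6 or more from 0. Wnt5a, Wls, Frzb, Lhx1 and the mesoderm genes Mesp1, Mesp2 and Kdr lie beyond 2-fold higher, Dppa4 and Sox2 beyond 2-fold lower, and all 10 transducers between the dotted lines.

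For the 4 of the 10 genes with a mean of 20 CPM or more, the genes closest in profile over the 7 libraries were taken from 4660 others, by the root mean square difference of log2(CPM + 1) after centring. Wnt8a was closest to Zfp219 (0.0820), Syngr1 (0.0959) and Tmem160 (0.102), where its own deviation from its mean was 0.479. Sp5 was closest to Emb (0.176), Peg3 (0.177) and Agtrap (0.224), with an own deviation of 0.673. Lef1 was closest to Zfp516 (0.158), Frat2 (0.175) and Upp1 (0.179), with an own deviation of 0.436. Wnt3, with an own deviation of 0.170, was closest to Mgat1 (0.0691), Tln2 (0.0905) and Dlg3 (0.101). These are descriptions over 7 libraries.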

How the data were processed

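The authors deposited 1 table of RSEM estimates per library, with columns of expected counts, of TPM and of FPKM, per the file headers. RSEM and the mouse build mm9 are named in the submitters' processing notes, with no version, and libraries were made with the Lexogen QuantSeq 3′ kit, per the labels' protocols. The deposited expected counts are raw estimates, and they were rounded here before testing. The TPM and FPKM values deposited by the authors divide by transcript length, which 3′ reads do not follow, and were not used. How strand and duplicates were handled is not given in these sources, so reads of overlapping genes cannot be told apart; of the 10 genes only Wnt3 overlaps another gene (Wnt9b, at most 2.61 CPM) in the RefSeq table. Names came from that table (GRCm38.p6), which named 23447 of 24990 features as single genes; 147 of 148 listed symbols matched. No coordinates of features are given, as the builds differ.

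Tests used edgeR 4.0.16 under R 4.3.3, with filterByExpr by group (10265 genes kept), TMM scaling and 1 quasi-likelihood fit over all 7 libraries with a coefficient per group. Only WT and pKO have 2 libraries, which leaves 2 residual degrees of freedom (prior 5.86, common biological coefficient of variation 0.294). Adjusted p under 0.05 was called. A prior count of 2 entered log2 values. Each SE of a log2 difference was derived here as its absolute value over the square root of edgeR's F statistic. It is approximate at low counts, where the prior count shrinks the difference. KD against Ctrl was read by size, at 20 CPM or more and 2-fold. Ratios of 2 libraries carry exact binomial 95% intervals. Only the edgeR fit for pKO against WT was run on simulated counts, with a fixed spread below that of these libraries. Changes were planted there only in genes with higher counts. Ratios of single libraries and the calls for KD against Ctrl were not simulated.

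All 10 genes are described. Other genes were named as the up to 4 per list with the largest absolute log2 ratio of KD to Ctrl. These were taken among genes at 20 CPM or more in either library, plus T, Mixl1, Cdx2 and Tcf7. Lgr5, Tle1, genes at 0 in all libraries and cell type markers were named outside that rule, after their values were seen. The genes and lists were chosen with earlier results of these data known. Alternatives covered scaling, filter, test (DESeq2 1.42.0), grouping, block and left-out libraries.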

Additional observations from a re-analysis of the deposited data

How the results depend on the processing

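None of the 10 genes passed the adjusted threshold in pKO, pInv and WT comparisons under any alternative run (scaling, filter, DESeq2, grouping, block, left-out libraries). The count of all genes called was 0 in the 3 tested comparisons; with no filter on low counts it was 9 (pKO over WT), 6 (pInv over WT) and 8 (pInv over pKO). With 1 library left out it ran from 0 to 7 for pKO against WT (4 without pKO1, 7 without pKO2), from 0 to 0 for pInv against WT and from 0 to 7 for pInv against pKO (2 without pKO1, 7 without pKO2), and the 10 genes stayed at 0 to 0. The cause was not tested.

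Grouping by the genotype field, which sets other libraries against each other, called 7 genes for pInv against WT and turned the direction of many log2 differences. For pKO against WT these became -0.78 (Wnt5a), 0.29 (Wnt8a), -0.53 (Sp5), -0.0905 (Lef1), 0.28 (Axin2), 0.50 (Nkd1) and 0.57 (Notum). For pInv against WT they became -0.17 (Wnt3), -0.70 (Wnt5a), 0.0150 (Rspo3), 0.24 (Axin2) and 0.14 (Dkk1). For pInv against pKO they became -0.15 (Wnt3), 0.0784 (Wnt5a), -0.61 (Wnt8a), 0.33 (Sp5), -0.57 (Nkd1) and -1.30 (Notum).

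The replicate numbers do not pair libraries in the labels. Differences between replicates 1 and 2 of WT and of pKO correlated at 0.311 over genes, with only 2 pairs to judge from. With the number as a block, 1 gene was called for pInv against WT and 0 in the other comparisons, and Wnt8a turned to 0.37 for pInv against WT. With library size only, Wnt8a was at 0.13 there.

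Leaving out 1 library turned directions. For pKO against WT the ranges were -1.11 to 0.15 (Wnt8a), -0.25 to 1.13 (Rspo3), -0.47 to 0.56 (Lef1), -0.21 to 0.0682 (Axin2) and -0.48 to 1.83 (Dkk1). For pInv against WT they were -0.23 to 1.68 (Wnt5a), -0.53 to 0.70 (Wnt8a), -1.19 to 0.23 (Rspo3), -0.91 to 0.61 (Sp5) and -1.83 to 0.53 (Dkk1), and for pInv against pKO -0.78 to 0.26 (Wnt5a). These turns of pInv follow from the lone library lying between both libraries of the other group. Notum kept its direction, at -1.29 to -1.01 for pKO against WT. So did Nkd1 (-0.71 to -0.44), Wnt3 (-0.15 to -0.06), Sp5 (0.22 to 1.72) and Wnt5a (0.09 to 2.03).

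For KD against Ctrl, 269 genes were 2-fold apart, 205 higher and 64 lower. At 5 CPM there were 1353 (958 and 395) with 4 of the 10 genes, and at 1.5-fold 833 (522 and 311) with 3. With library size only, all genes shifted by 0.12 (log2) and the split was 302 higher and 39 lower, or 88.6% higher in place of 76.2%. Ratios of the 10 genes stayed within their counting intervals under each scaling and prior count run, but with library size only 6 of the 10 intervals lay above 1 and 2 below, in place of 5 and 3: Wnt8a then included 1 and Dkk1 did not (chosen after seeing the data). KD was the highest or lowest library for 8 of the 10 genes, also without WT2 (8 and 8, chosen after seeing the data) and under the other scalings. Counts of 1 to 25 limit Dkk1, Nkd1, Axin2 and Notum.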
